A study of Homo sapiens with 13 samples.

Results

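FOXA1 binding in Ishikawa cells, an established human endometrial adenocarcinoma line, was read from 1 list of 54855 peaks. Every peak of the list was kept, out of 68107 peaks in the 2 lists of the series. The list was called on 6 FOXA1 chromatin immunoprecipitation (ChIP) libraries pooled into 343739762 tags, against 2 pooled libraries of input, which is sheared chromatin that was not immunoprecipitated. All 8 libraries came from Ishikawa cells, the ChIP libraries were made with a rabbit FoxA1 antibody, and the labels name no treatment, genotype or time. The kit was TruSeq for 2 ChIP libraries and 1 input library, and ThruPLEX for 4 and 1. No value per library was used here, so no value below has a replicate error, and peaks are not replicates of one another. Coordinates are those of hg19.

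FOXA1 is a forkhead transcription factor that can bind its site in compacted chromatin and open it for other factors, which is why it is called a pioneer factor. In hormone-responsive epithelia it is known for preparing the sites that steroid hormone receptors then occupy. A ChIP peak marks a place where DNA fragments crosslinked to the factor, or to proteins around it, pile up. A tag is the mapped end of 1 sequenced fragment. All peaks have the same width of 353 bp, so their tags need no correction for width. Levels of ChIP and input tags differed between chromosomes, as described below.

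What could enter the list was set by the peak caller. Of 352089 putative peaks, 246198 were removed on input, 38449 on the surrounding 10000 bp and 12587 as clonal, which means that their tags sat on too few positions. This left 15.6% of the putative peaks. Each listed peak holds at least 88 tags by its score, at least 4 times the tags of input and at least 4 times those of its surroundings. Scores, folds, focus ratios and clonal folds are the authors' own values for each peak. The lower ends of the distributions below are therefore thresholds. Close to them lay 1078 peaks with a fold over input under 4.1, 1220 with a fold over the local region under 4.1, and 60 with the lowest score allowed. Peaks just outside the thresholds were not analysed here.

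The strongest site was chr17:41747442-41747794, with a normalized tag count of 1267.5 tags per 10000000 and 6 input tags. It was followed by chr12:71849170-71849522 with 1179.2 and 8 input tags, by chr14:25550892-25551244 with 1151.9 and 10 input tags, and by chr7:47022419-47022771 with 1061.6 and 3 input tags. These 4 sites exceeded 1000 tags per 10000000, and the fifth, chr12:31902297-31902649, had 939.2. The next, chr7:47078703-47079055 with 898.2, lay 56.3 kb from the fourth, so that 2 of the 6 strongest sites stood in 1 region of chromosome 7. Ranks 7 and 8 were chr2:187636567-187636919 with 831.0 and chr2:67264790-67265142 with 827.9. The next 2 were chr10:95205360-95205712 with 787.8 and chr10:112389361-112389713 with 773.2.

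Ranks 11 to 20 lay close together, from 764.2 down to 707.7 tags per 10000000. They were chr2:161991787-161992139, chr7:146236909-146237261, chr8:52811549-52811901, chr5:123935355-123935707, chr17:79367743-79368095, chr11:85194937-85195289, chr3:58457070-58457422, chr18:31382842-31383194, chr7:11825829-11826181 and chr17:77809866-77810218. The 20 sites were spread over 11 chromosomes, with 4 on chromosome 7 and 3 each on chromosomes 2 and 17. In 18 of them the focus ratio, the fraction that states how tightly tags surround the centre, was at least 0.9, with a median of 0.965. The exceptions were the chromosome 12 site of rank 2, at 0.874, and the chromosome 18 site, at 0.896.

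The nearest listed peaks of the strongest sites were mostly far weaker, as follows largely from picking these sites as the highest of the list. The nearest listed peak to the strongest site was 31.0 kb away and had 10.8 tags per 10000000. Over the 20 strongest sites the nearest peak lay at a median distance of 9.62 kb (1.60 to 88.4 kb). In 18 of them it was more than 5 kb away and had 4.1 to 32 tags per 10000000, where the median of all listed peaks was 9.69. In the other 2 it was closer and itself strong: the chromosome 7 site at chr7:146236909-146237261 (757.2) had a peak of 222.7 at 1.60 kb, and the chromosome 18 site (711.6) had one of 155.8 at 1.65 kb. Those 2 sites also had the lowest folds over the local region among the 20, at 47.6 and 40.5. A listed peak needs at least 4 times the tags of the surrounding 10000 bp. Within 5 kb of a strong site those surroundings include the site itself, so weak neighbours there may not have entered the list. The part of this filter in the pattern was not tested.

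Signal differed widely between sites. The median peak had 9.69 tags per 10000000, which is 333 tags. If tags are independent, this gives a counting error of 5.48%, which covers no difference between libraries. The middle 50% of peaks lay between 6.55 and 16.3 tags per 10000000. The peak at the 90th percentile, with 32.1, had 6.52 times the signal of the peak at the 10th, with 4.92. The weakest peak had 2.30 and the strongest 551 times as much. Under 20 tags per 10000000 lay 81.0% of the peaks, while 1048 peaks exceeded 100 and 39 exceeded 500.

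This spread placed much of the signal in few sites. The strongest 1% of peaks, 549 sites of at least 145.1 tags per 10000000, held 14.9% of the signal in peaks. The strongest 10%, which are 5486 sites of at least 32.1, held 45.0%, and the weakest 10% held 2.32%. The strongest 13.1% of peaks (7164 sites) reached 50% of the signal, and 39.4% of peaks reached 75%. The Gini coefficient, which is 0 for equal signal in every peak and approaches 1 when a single peak holds all, was 0.516. Single sites still weighed little: the 20 strongest held 1.77% of the signal in peaks and 0.171% of all ChIP tags. Peaks as a whole held 9.66% of all ChIP tags.

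**Figure D1:**
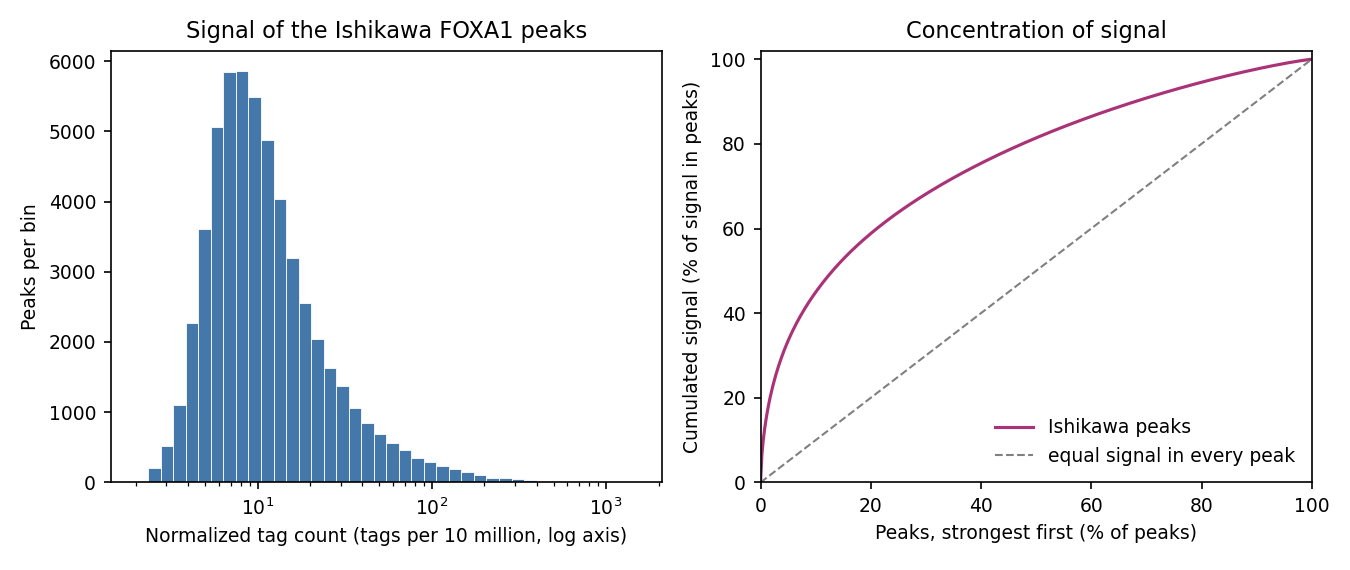
Left, number of Ishikawa peaks by normalized tag count (tags per 10000000, log axis). Right, signal cumulated from the strongest peak on, in percent of the signal in peaks, with a dashed line for equal signal in every peak. The bulk of peaks lies near the median of 9.69, with a tail up to 1267.5, and the strongest 10% of peaks reach 45.0% of the signal.

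The order of the strongest sites depended on the column used to rank them. The findPeaks score counts at most 17 tags per bp, per the file header, which for 353 bp on both strands gives a ceiling of 12002. The median peak had a score equal to 101% of its tags. Among the 100 peaks of highest normalized tag count the median was 53.7%, and among the 20 highest it was 33.7%. The highest score, 11549 at chr12:71849170-71849522, stood at 96.2% of the ceiling. The site with most tags, chr17:41747442-41747794, had 43569 tags, a score of 9843 and rank 9 by score. Of the 20 strongest sites by normalized tag count, 13 were also among the 20 of highest score. Of the 100 strongest sites, 87 were among the 100 of highest score.

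**Figure D2:**
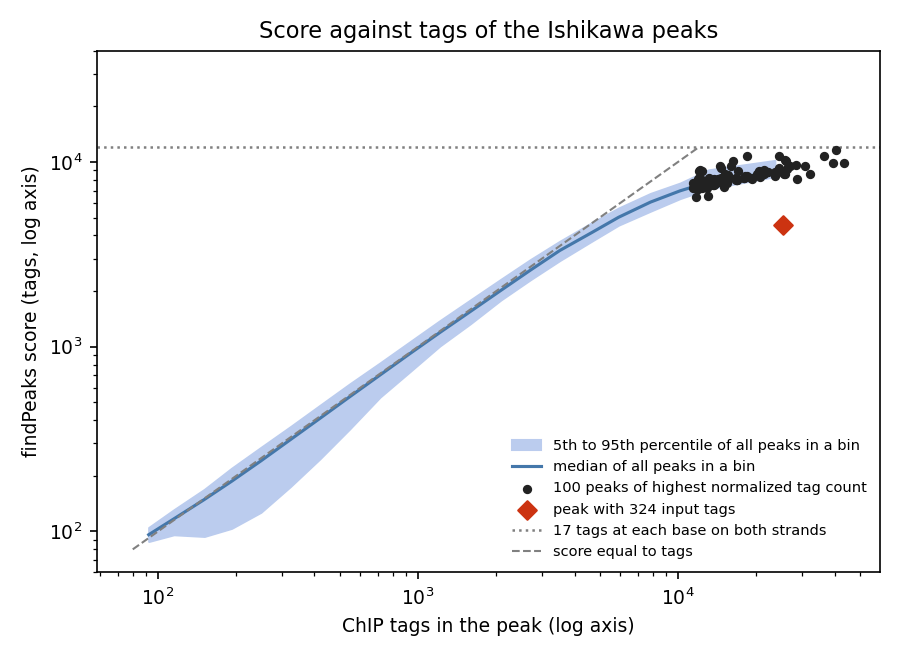
findPeaks score against ChIP tags of the Ishikawa peaks, both on log axes: median and 5th to 95th percentile of all peaks by bin of tags (bins with at least 20 peaks), and the 100 strongest peaks as points. The dashed line is a score equal to the tags and the dotted line the ceiling of 12002. Strong peaks bend towards the ceiling, and the peak with 324 input tags (diamond) lies below them with a score of 4576.

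Input was thin under most peaks, all of which had passed the filter on input. The pooled input that the deposited scaling implies held about 38700000 tags, so the ChIP was 8.88 times as deep. The median peak held 5 input tags, with an exact 95% Poisson interval of 1.62 to 11.7, and 90% of peaks held 9 or fewer. No input tag was seen in 639 peaks (1.16%), where the authors' list carries 0.5 in place of 0. More than 20 input tags were seen in 16 peaks. The variance of input tags over peaks was 1.83 times their mean, where counting error around a single level would give 1. Without the 1 peak of most input, described below, it was 1.48 times the mean, and on the autosomes other than chromosome 12 it was then 1.36 times. Listed peaks had passed a filter on input that depends on their ChIP tags, so 1 is only a rough reference for these ratios. Mean input ran from 7.31 tags in the strongest 10% of peaks to 2.52 in the weakest 10%. Poisson intervals cover counting error only.

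The fold over input had a median of 7.80. It lay under 5 in 18.5% of peaks, was at least 10 in 37.0%, and was at least 100 in 720 peaks. When input was set to the upper bound of its Poisson interval, 36.0% of peaks (19749) still had a fold of at least 4. That share was 99.98% among the strongest 10% of peaks and 2.32% among the weakest 10%. This share follows the size of the fold, whose median was 33.3 in the strongest 10% and 5.91 in the weakest 10%. It does not state how exactly a fold is known. The median input was 7 and 3 tags in these groups, so single folds are loosely known in both. Nearly every strong peak still stays above the threshold.

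The highest folds over input rest on few input tags. The first in rank, chrX:23264120-23264472, had a normalized tag count of 339.8 and no input tag. Against a floor of 3 input tags it was 439.2-fold over input. Against the upper Poisson bound at 0 tags, which is 3.69 and on which the intervals of the other folds rest, it was 357-fold. The second, chr7:47022419-47022771, had 3 input tags and a fold of 1372.5 (95% interval 470 to 6655). The next 4 were chr7:27702587-27702939, chr4:103658289-103658641, chr14:56584674-56585026 and chr2:190701342-190701694. Each had 1 input tag, and their folds were 1348, 1104, 1063 and 997. The interval of the first of these ran from 242 to 53255 and that of the last from 179 to 39379, so their order is not resolved. The remaining 4 were chr17:79367743-79368095 with a fold of 963 (329 to 4669), chr17:41747442-41747794 with 818 (376 to 2230), chr4:156348098-156348450 with 803 (275 to 3894) and chr9:38672191-38672543 with 783 (268 to 3794).

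One strong site stood apart from the others in input. The site chr11:85194937-85195289 ranked 16 by normalized tag count, with 738.8 tags per 10000000, and held 324 input tags, the most of any peak. The other 19 of the 20 strongest sites held 3 to 15 input tags. Its fold over input was 8.83 (95% interval 7.92 to 9.87), and theirs ran from 242 to 1373. Its fold over the local region was 749, the highest of the list, and the next highest was 473. Its score was 18% of its tags, the lowest share of all peaks, and its clonal fold of 1.05 was the only one above 1 among the 100 strongest sites. The nearest listed peak lay 88.4 kb away and had 4.1 tags per 10000000. The site thus had both the most input and the highest fold over the local region of the list, and what it is was not tested.

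The other sites with most input were far weaker in ChIP. They were chr4:52809-53161 with 34 input tags and a normalized tag count of 65.7, chr1:144989395-144989747 with 31 and 40.6, chr3:180630037-180630389 with 27 and 55.6, and chr12:53343562-53343914 with 25 and 153.8. Their folds over input were 7.48, 5.08, 7.97 and 23.8. Of these, the chromosome 1 site had a lower bound of 3.58, below the threshold of 4.

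Input and ChIP levels moved together between chromosomes. On the 21 autosomes other than chromosome 12, the mean input per peak lay between 5.07 and 5.68 tags and the median normalized tag count between 9.05 and 10.5. Chromosome 12 lay above both ranges, with 7.88 input tags and a median of 14.3 over 2940 peaks. Chromosome X lay below both, with 2.82 input tags and a median of 5.47 over 1980 peaks. Relative to the other autosomes pooled, chromosome 12 had 1.49 times the median signal and 1.49 times the mean input, and chromosome X 0.570 times and 0.532 times. The median fold over input differed less, with 7.37 on chromosome 12, 7.79 on the other autosomes and 8.95 on chromosome X. Peaks under the fixed tag threshold do not enter the list, so levels on chromosome X are those of the peaks that reached it.

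Rankings by tag count carried these levels with them. Chromosome 12 placed 17.2% of its peaks among the strongest 10% of the list, chromosome X 3.54%, and the other autosomes 9.83%. Chromosome X held 146 of the 639 peaks without an input tag (22.8%) and 3.61% of all peaks. The chromosome X site with the highest fold over input, described above, ranked 95 by normalized tag count.

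**Figure D3:**
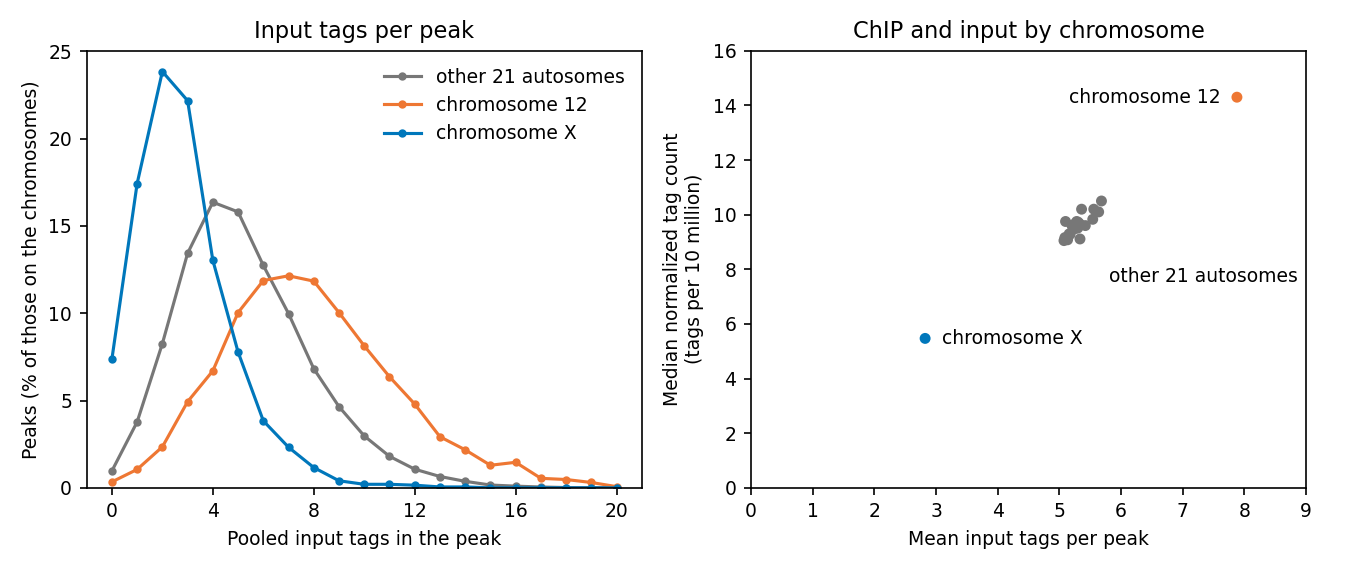
Left, percent of peaks by number of pooled input tags, for chromosome X, chromosome 12 and the other 21 autosomes. Right, median normalized tag count (tags per 10000000) against mean input tags per peak, 1 point per chromosome. Chromosome 12 lies above the other autosomes on both axes (7.88 input tags, median 14.3) and chromosome X below them (2.82 and 5.47).

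Stronger peaks were more sharply centred. The focus ratio had a median of 0.829 and quartiles of 0.765 and 0.883, and ranged from 0.478 to 0.997. It was at least 0.9 in 18.2% of peaks and under 0.7 in 9.06%. Among the strongest 10% of peaks the median was 0.914, with 57.9% at 0.9 or more. It fell from one 10% of peaks to the next, to 0.864 in the second and 0.791 in the weakest, where 6.11% of peaks were at 0.9 or more. The quartiles of the strongest 10% (0.856 to 0.949) and of the weakest (0.737 to 0.842) did not overlap. Spearman's rho of the focus ratio was 0.350 with normalized tag count, 0.461 with fold over the local region and 0.0969 with input tags. Focus ratio and tag count are computed from the same tags, and these are descriptions over 54855 peaks.

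**Figure D4:**
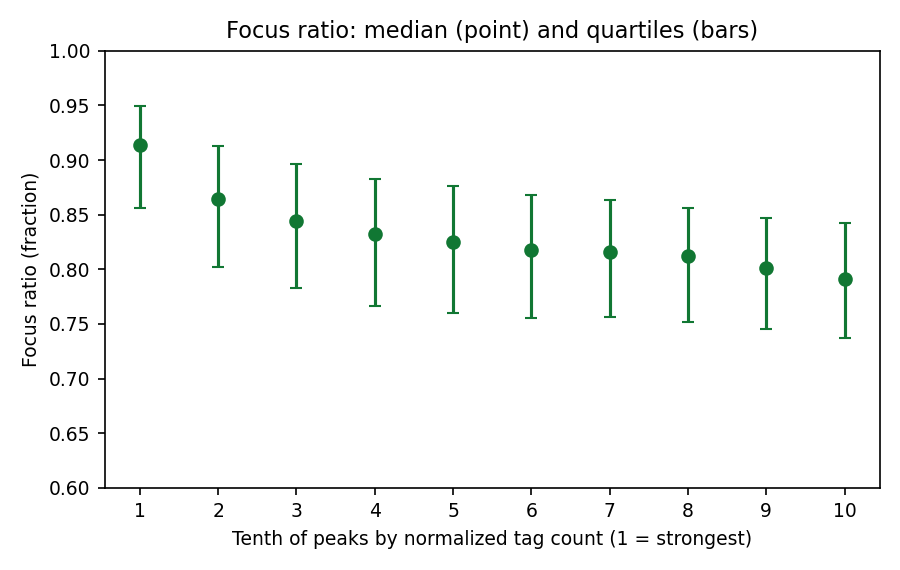
Focus ratio (fraction) of Ishikawa peaks in 10 equal groups by normalized tag count, from the strongest (1) to the weakest (10). Points are medians and bars reach from the lower to the upper quartile. The median falls from 0.914 to 0.791.

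A few strong sites had a low focus ratio. Of the 1000 strongest peaks (at least 102.2 tags per 10000000), 744 had a focus ratio of at least 0.9 and 7 were under 0.7. The lowest were chr9:85103604-85103956 with 0.622 and a normalized tag count of 108.5, chr20:14366150-14366502 with 0.642 and 122.7, and chr4:158381010-158381362 with 0.662 and 130.9. They were followed by chr3:25078397-25078749 with 0.668 and 166.8, and by chr15:62042515-62042867 with 0.686 and 354.1. The folds over the local region of these 5 sites ran from 14.3 to 31.1. The median was 6.93 over all peaks and 26.4 in the strongest 10%. The chromosome 15 site was the strongest of these and had a peak of 209.5 at 17.4 kb. Its score of 9085, rank 19 in the list, was 74.6% of its tags. A site of similar signal and higher focus ratio, chrX:23264120-23264472 with 339.8 and 0.949, had a score of 55.1% of its tags.

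The clonal fold tended to be lower in stronger peaks (Spearman's rho with normalized tag count -0.396). It compares the positions expected for the tags of a peak with those seen, and is not a number of tags per position. The score, which counts at most 17 tags per bp, had a median of 33.7% of the tags in the 20 strongest sites. The clonal fold exceeded 1 in 25.1% of peaks. This share was 1.37% in the strongest 10% of peaks and 37.5% in the weakest. Within 0.1 of the allowed limit of 2 lay 712 peaks.

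Peaks lay mostly more than 10 kb apart. The median distance from a peak centre to the nearest other centre was 15.4 kb, and the middle 50% of peaks lay between 7.64 and 31.5 kb. Another peak lay within 12.5 kb of 42.1% of peaks and within 100 kb of 97.1%. Between consecutive peaks the median distance was 29.2 kb and the mean 53.6 kb. Without the 64 gaps of at least 1 Mb the mean was 50.3 kb. With the threshold over input raised to 8 the median nearest distance was 28.0 kb, and with that over the local region raised to 8 it was 36.7 kb.

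Isolated peaks were weaker than crowded ones. With another peak within 5 kb, the median normalized tag count was 12.7 (7256 peaks, quartiles 8.76 and 20.4). It was 9.34 at a nearest distance of 12.5 to 25 kb, 8.17 at 50 to 100 kb, and 5.73 beyond 200 kb (339 peaks, quartiles 4.31 and 8.78). Mean input in these 4 classes was 6.02, 5.30, 4.88 and 3.90 tags per peak, and chromosome X gave 3.35%, 3.16%, 6.03% and 8.85% of their peaks. The median fold over the local region in the same classes was 5.91, 7.1, 6.98 and 6.64. The part of input, of chromosome X and of the filter on the surrounding 10000 bp in the difference was not tested. Seen from the strong sites, the strongest 10% of peaks had on average 3.08 other peaks within 50 kb, and the weakest 10% had 1.78. The 100 strongest sites had 3.89. Within 5 kb the order differed at the top: the mean number of other peaks was 0.164 in the strongest 10%, 0.227 in the next 10% and 0.0421 in the weakest. Of the 100 strongest sites 8% had another peak within 5 kb, and of all peaks 13.2% had one. Which peaks within 5 kb of a strong site were listed also depended on the filter on the surrounding 10000 bp. The focus ratio hardly varied with distance, with medians from 0.826 to 0.847.

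Distances of up to 5 kb behaved unlike longer ones. Pairs of consecutive peaks numbered 362 at 4.5 to 5 kb and 649 at 5 to 5.5 kb. Up to 5 kb, the stronger peak of a pair had at most 5.17 times the signal of the weaker over 3751 pairs, with a median of 1.37. From 5 to 10 kb it had up to 98.3 times, with a median of 1.83 over 6769 pairs, and 9.19% of these pairs differed by more than 6 times. Spearman's rho between the signals of both members was 0.738 up to 5 kb and 0.210 from 5 to 10 kb. Between their input tags it was 0.224 and 0.148. These are descriptions over pairs that share libraries and neighbourhood. The step stood at the reach of the local filter, which compares a peak with 10000 bp around it and so with 5 kb on either side. The lower fold over the local region of a pair had a median of 4.89 up to 5 kb and 5.53 from 5 to 10 kb, against a threshold of 4. The part of the filter in the step was not tested. The split at 5 kb was chosen after the distances were seen.

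From 1 to 5 kb, pairs were most numerous at 1 to 1.5 kb. There were 629 at 1 to 1.5 kb, 521 at 1.5 to 2 kb and 331 at 4 to 4.5 kb. Below 1 kb there were 399, over a stretch cut short by the minimum distance, so this count cannot be ranked against full bins. Counted from the shortest distance on, pairs numbered 1130 per kb up to 1 kb and 1150 per kb from 1 to 2 kb. The 0.5 kb bins from 5 to 6 kb held 649 and 712, more than any full bin from 1 to 5 kb. The shortest distance was 647 bp. The file header gives a minimum of 706 bp between peaks, and 5 pairs were closer.

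**Figure D5:**
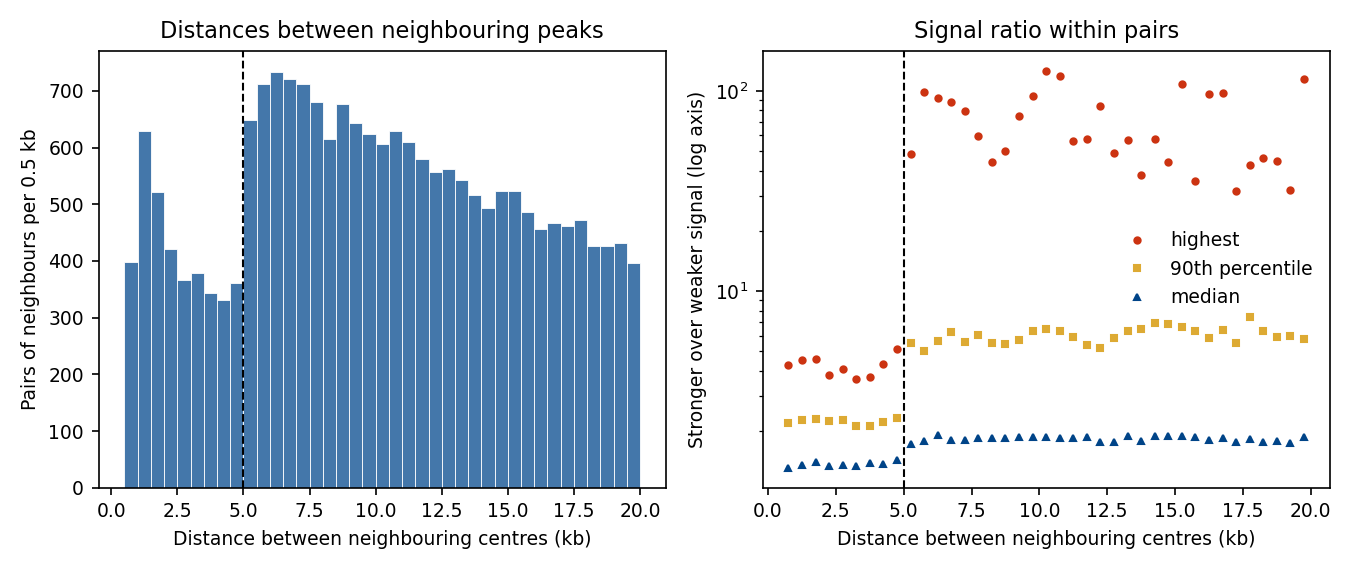
Left, number of pairs of consecutive Ishikawa peaks by distance between centres, in bins of 0.5 kb. Right, signal of the stronger over the weaker peak of a pair (log axis): median, 90th percentile and highest value per bin. At the dashed line at 5 kb, pairs rise from 362 to 649 per bin, and the highest ratio rises from 5.17 to 48.5.

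Linking consecutive centres up to 12.5 kb apart gave 31769 single peaks, 9285 groups of 2 to 4 peaks, and 299 clusters of 5 or more. The clusters of 5 or more held 3.11% of peaks and 5.09% of the signal in peaks. Their peaks had a median normalized tag count of 14.6, with 20.3% in the strongest 10% of the list, against 8.79 and 8.53% for single peaks. Mean input was 6.49 and 5.11 tags per peak. The share of peaks in such clusters was 17.6% when centres up to 25 kb apart were linked and 0.00911% at up to 5 kb, so it describes the chosen distance as much as the sites. With the threshold raised to 8 it was 0.127% for the local region and 1.26% for input.

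The 2 largest clusters held 12 peaks each and lay on chromosome 6. The one with more signal, chr6:122328941-122402215, spanned 73.3 kb and held 896 tags per 10000000 in all. Along the chromosome its peaks had normalized tag counts of 22.1, 6.49, 31.3, 22.2, 88.2, 29.2, 144.3, 77.9, 86.0, 235.7, 141.5 and 10.8. The strongest lay near the right end of the cluster, with a focus ratio of 0.938, and held 26.3% of its signal. Each peak held 4 to 12 input tags. The peak of 86.0 lay beside the peak of 235.7 and had a focus ratio of 0.728.

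The second cluster of 12 peaks, chr6:134287106-134362493, held 329 tags per 10000000, with 105.3 in its strongest peak. The next were chr18:24028863-24091845 with 11 peaks and 345.7 in all, chr1:201987778-202056429 with 10 peaks and 244, and chr3:168952681-169005268 with 9 peaks and 825.5. The chromosome 3 cluster had no weak member, as its lowest peak had 28.7. It also had a mean of 11 input tags per peak, where all peaks had 5.35.

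By signal, single sites led, and the 3 highest sums belonged to the 3 strongest peaks, the third with 1 weak neighbour of 13.1. The fourth was a cluster of 5 peaks at chr12:52511813-52533516 with 1095 tags per 10000000, of which its strongest peak held 50.6%, and with 11.2 input tags per peak. The fifth was the chromosome 7 site of rank 4 with a neighbour of 14.7. Among clusters of 5 or more the next were chr5:123974678-124006951 with 7 peaks and 1009, the chromosome 6 cluster with 896, chr7:11782244-11826181 with 7 peaks and 885, and chr10:95196855-95226020 with 5 peaks and 851. The strongest peak held 48.9% of the signal on chromosome 5 and 92.6% on chromosome 10. Over the 299 clusters this share had a median of 36.2% (17.4% to 92.6%).

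Over larger distances, peaks were present in 2843 windows of 1 Mb, with a median of 19 peaks per window and 7 to 31 between the 10th and 90th percentiles. The window with most peaks was chromosome 7 from 83 to 84 Mb, with 60 peaks, a summed signal of 1217 tags per 10000000 and no peak above 135.9. Chromosome 5 from 123 to 124 Mb had 57 peaks and the highest summed signal, 3504, of which the site at chr5:123935355-123935707 held 21.4%. The window beside it, from 124 to 125 Mb, had 49 peaks and 1711. Chromosome 14 from 68 to 69 Mb had 54 peaks and 1914, and chromosome 2 from 70 to 71 Mb had 50 and 1239. By signal, chromosome 7 from 47 to 48 Mb came second with 3329 and 35 peaks. It was followed by chromosome 14 from 25 to 26 Mb with 2262, chromosome 12 from 52 to 53 Mb with 2164 and chromosome 12 from 71 to 72 Mb with 2105. On chromosomes 14 and 12, single sites of rank 3 and 2 held 50.9% and 56.0% of the signal of their windows. The richest 22.7% of windows held 50% of the signal, and 32.7% of windows held 50% of the peaks.

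Density varied modestly between chromosomes. Between the first and last peak, with the largest gap left out, the 21 autosomes other than chromosome 12 had 14.7 (chromosome 16) to 23.2 (chromosome 19) peaks per Mb, with a median of 19.6. Chromosome 12 had 22.6 and chromosome X 13.4. The median focus ratio differed little, from 0.817 on chromosome 19 to 0.834 on chromosome 21. The median fold over the local region was highest on chromosome 19, at 8.01, and lowest on chromosome 13, at 6.61. Chromosome Y had 1 peak and the mitochondrial chromosome 0. The median distance to the nearest peak ran from 13 kb on chromosome 22 to 17 kb on chromosome 5 among these autosomes, and was 21.6 kb on chromosome X.

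The largest intervals without a peak ran from 44129296 to 66520278 on chromosome 9 (22.4 Mb between centres), from 121328669 to 142618603 on chromosome 1 (21.3 Mb), and from 35033533 to 46586416 on chromosome 16 (11.6 Mb). They were followed by 57745493 to 63360904 on chromosome 7 (5.62 Mb) and 90246646 to 95537009 on chromosome 2 (5.29 Mb). How much of these intervals could be mapped was not analysed here.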

How the data were processed

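FOXA1 ChIP-seq of Ishikawa cells was analysed from 1 deposited peak list. The submitters' processing notes name HOMER 4.7.2, Bowtie 1.1.2, SAMtools 1.3.1 and hg19. Peaks were called by the authors on 6 pooled ChIP libraries against 2 pooled inputs with findPeaks in factor mode, at a false discovery rate of 0.001, per the file headers. The deposited signal (normalized tag count) is tags per 10000000, the deposited score a capped tag number, the deposited focus ratio a fraction, and the deposited folds are ratios. Input signal is in tags.

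Distances run between peak centres. Python 3.11.15, pandas 2.3.3, numpy 2.4.6 and scipy 1.17.1 were used, and the functions were tested on simulated lists. Input intervals are exact Poisson intervals at 95%, with the scaled ChIP tags taken as fixed. In 40 peaks, none of them named, the scaled tags differed from the normalized tag count by over 5%, up to 2.02 times. Values per library, gene annotation and sequence on hg19 were not used here, so no test between libraries was made and no gene is named.

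Sites named are the 20 of highest normalized tag count, the 10 of highest fold over input, the 5 with most input, the 5 of lowest focus ratio among the 1000 strongest, the 5 clusters with most peaks and with most signal, and the 5 largest gaps. Clusters of 5 or more by signal, the windows, and the values of chromosome X were added after the data were seen. Members and lists were chosen with earlier results of these data known. Alternatives were stricter folds, leaving out chromosome 12, the score as signal, edge distances and other linking distances.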

Additional observations from a re-analysis of the deposited data

How the results depend on the processing

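The median normalized tag count of 9.69 became 15.2 with the threshold over input raised to 8, 17.8 with that over the local region raised to 8, and 9.45 without chromosome 12. Under these 3 settings the share of signal in the strongest 10% of peaks (45.0%) was 44.1%, 42.2% and 44.8%, and it was 42.6% by score. With the stricter folds over input and over the local region, 26646 and 21990 peaks were left, the median input was 4 and 6 tags in place of 5, the median focus ratio 0.852 and 0.873 in place of 0.829, and the median nearest distance 28.0 and 36.7 kb in place of 15.4 kb (15.1 kb from edge to edge). The share of peaks in clusters of 5 or more (3.11%) was 1.26% and 0.127% with these folds, which leave fewer peaks to link, and 0.00911% and 17.6% when linking at up to 5 and 25 kb. Without chromosome 12, the median input was 5, the median focus ratio 0.829, the median nearest distance 15.6 kb and the share in clusters 3.02%. With no replicates, no spread between libraries is known against which to read these shifts. The stricter folds keep fewer peaks by construction, and the distance from edge to edge leaves out the peak width of 353 bp by definition. The cause of the other shifts was not tested. No paired analysis was possible because each library entered a pool before peak calling, and for the same reason no library could be left out. Input depth, with a median of 5 tags, limits how exactly the fold of a single peak is known.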
